A study of Homo sapiens with 24 samples.

Results

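The genes described here responded to the kinase inhibitor dasatinib at 6 h and stood back near their starting level at 24 h in at least 1 of 2 renal carcinoma lines. They number 63 of the 18132 genes measured. Each gene was read from the probe set with the highest mean over the 24 arrays among those naming 1 gene. A gene was taken if, in 1 line, its log2 signal differed from DMSO by at least 0.7 at 6 h and by at most 0.2 at 24 h, and if the highest of that line's 4 group means was at least 7. Caki-1 gave 22 genes, of which 6 were higher and 16 lower at 6 h. 769-P gave 43 genes, of which 11 were higher and 32 lower at 6 h. Only BRD8, higher, and ALPK2, lower, met the rule in both lines. The changes at 6 h and at 24 h in the line that chose a gene are therefore a description and carry no test.

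Caki-1 and 769-P are established human renal cell carcinoma lines. Cells of each received dasatinib at 1 µM for 6, 12 or 24 h, or the vehicle DMSO, and total RNA was read on Affymetrix PrimeView arrays, 3 per group. The 8 groups thus were Caki-1 with dasatinib for 6, 12 and 24 h and with DMSO, and the same 4 for 769-P. By the labels these are biological replicates, but nothing says how cultures were separated, so p-values measure the spread between these arrays. The DMSO arrays carry no time: those of a line served all 3 times, and hours with the drug cannot be told apart from hours in culture.

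Dasatinib blocks SRC family and ABL kinases, which pass signals from integrins and growth factor receptors to the cytoskeleton and the nucleus. Short-lived transcripts can follow such signals within hours, and feedback can return them to their former level while the drug is still present. The members are ordered below by roles known from other work, a grouping made after they were known. They include genes for cystine and metal handling, cell cycle and transcription regulators, ligands and receptors, cytoskeletal proteins and metabolic enzymes.

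The median log2 signal of an array was 6.008 to 6.084, and arrays within a group correlated at 0.9947 to 0.9975 for Caki-1 and at 0.9929 to 0.9968 for 769-P across probe sets. Of 13 renal epithelial markers, 11 were above the expression filter in Caki-1 and 12 in 769-P, PAX8 and PAX2 among them in both. Of 11 leukocyte markers, 4 passed it in Caki-1 and 3 in 769-P. These were CD3E, CD68 and CSF1R in both lines and CD14 in Caki-1, without PTPRC. Of 10 endothelial markers 4 and 5 did. These were PECAM1, VWF, TIE1 and ESAM in both lines and KDR in 769-P, without CDH5. The summed log2 levels of the endothelial list ran from 52.7 to 55.5 on the Caki-1 arrays at 24 h, against 49.9 to 51.6 with DMSO. Those of the renal epithelial list in 769-P were 114.1 to 115.7 at 6 h, 115.1 to 115.9 at 12 h and 120.4 to 121.5 at 24 h, against 116.8 to 118.6 with DMSO. The part of either list in the results was not tested. In RNA from whole cultures, fewer cells of a type and less RNA per cell cannot be told apart.

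The early response was rarely followed by a return. Of 582 Caki-1 genes past 0.7 at 6 h and past the level of 7, 22 were members, or 3.78%. A further 546 still differed by more than 0.2 in the same direction at 24 h, and 14 had crossed to the opposite side. Of 861 such genes in 769-P, 43 were members, or 4.99%, with 782 still displaced and 36 on the opposite side. The share of members was 4.91% among the genes lower at 6 h and 2.34% among those higher in Caki-1, and 7.1% and 2.68% in 769-P.

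**Figure D1:**
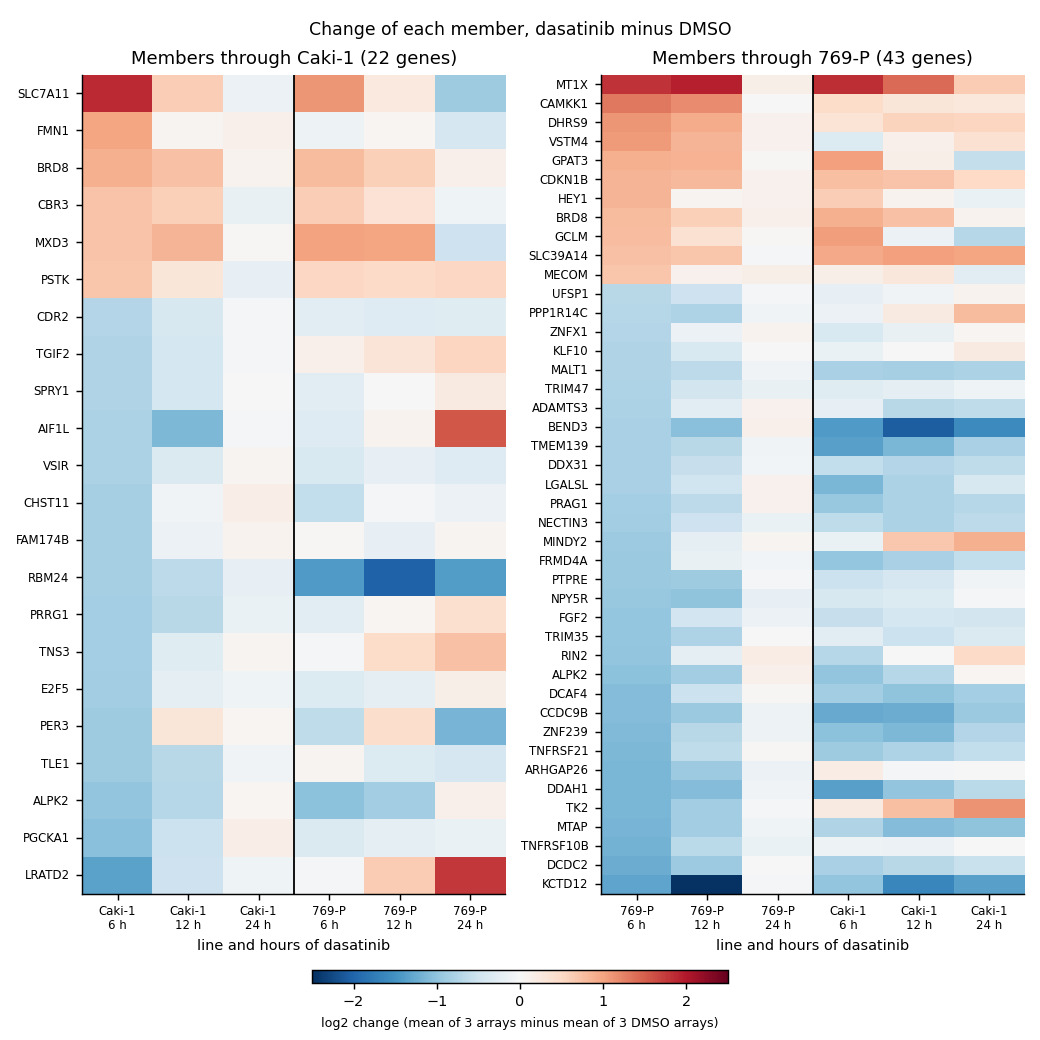
Log2 change of every member against DMSO at 6, 12 and 24 h, in the line that chose it (left 3 columns of each panel) and in the other line (right 3 columns), with red for higher and blue for lower. The 24 h column of the choosing line is pale because of the rule; the 24 h column of the other line is not, with LRATD2 at 1.76 in 769-P and BEND3 at -1.60 in Caki-1.

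The 12 h arrays were not used by the rule, although they were set against the same DMSO arrays. At 12 h most members had not yet returned. In Caki-1, 14 of 22 members were called by limma at an adjusted p under 0.05, against 48.4% of all genes tested. Of these 4 rose, namely SLC7A11, BRD8, CBR3 and MXD3, and 10 fell, among them AIF1L, ALPK2, TLE1 and PRRG1, where 24.1% of all genes rose and 24.4% fell. In 769-P, 37 of 43 members were called, against 47.5% of all genes tested, and 9 rose while 28 fell, where 24.9% of all genes rose and 22.6% fell. Among genes with a highest group mean of at least 7, which the rule demands, 58.9% were called in Caki-1 and 58.1% were in 769-P. The Caki-1 count, at 63.6%, lay near that background, and the 769-P count, at 86%, lay above it. That background does not match the 6 h change, which the rule demanded against the same DMSO arrays. The excess in 769-P therefore cannot be read as a result about the members.

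The 6 and 12 h comparisons share their DMSO arrays, and their sizes are set side by side as a description. The 12 h change as a share of the 6 h change had a median of 62.9% in the higher and 53.6% in the lower Caki-1 members, and of 84.4% and 73.3% in 769-P. Of 65 line memberships (2 genes count in both lines), 9 kept at most 25% of the 6 h change at 12 h, 29 kept between 25% and 75%, and 27 kept more. In 7 of these the 12 h change was the larger one: MXD3 and AIF1L in Caki-1, and MT1X, BEND3, KCTD12, NPY5R and PPP1R14C in 769-P. The 9 that kept at most 25% were FMN1, CHST11, FAM174B and PER3 in Caki-1 and HEY1, MECOM, FRMD4A, RIN2 and ZNFX1 in 769-P. Of these, PER3 lay past DMSO in the other direction at 12 h, at 0.31, and RIN2, at -0.25, was still called. The name of early transient responders thus fits these 9 most closely, but the cut at 25% is no sharp boundary. E2F5 in Caki-1 (26.3%) and MINDY2 in 769-P (26.4%) lay just above it. The 29 that kept between 25% and 75% had returned in part by 12 h, and the 27 that kept more returned mostly between 12 and 24 h.

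**Figure D2:**
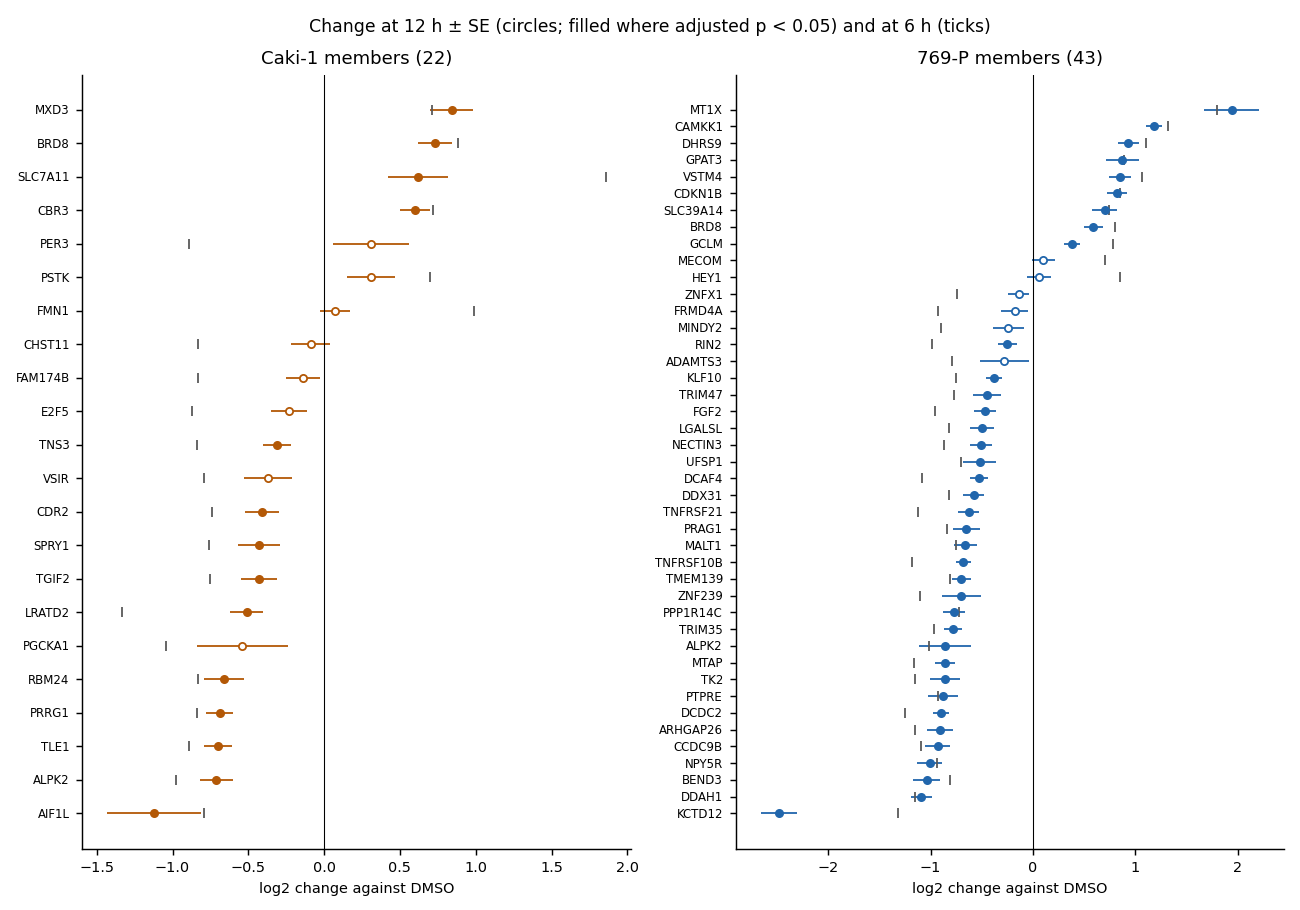
Log2 change at 12 h ± SE (circles, filled where the adjusted p is under 0.05) with the 6 h change as a tick, for the 22 Caki-1 and 43 769-P members. FMN1 and HEY1 lie at 0.07 and 0.06 at 12 h, while KCTD12 lies further from 0 at 12 h (-2.48) than at 6 h (-1.32).

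The gene BRD8 encodes a bromodomain subunit of the TIP60 histone acetyltransferase complex (chromosome 5, 138139770 to 138178630, RefSeq GRCh38.p14). In Caki-1 its log2 signals were 10.46, 10.17 and 10.18 with DMSO, 11.34, 11.13 and 10.96 at 6 h, 11.15, 10.91 and 10.92 at 12 h, and 10.53, 10.29 and 10.26 at 24 h. In 769-P they were 10.22, 10.53 and 10.62 with DMSO, 11.22, 11.26 and 11.28 at 6 h, 10.93, 11.11 and 11.10 at 12 h, and 10.58, 10.64 and 10.51 at 24 h. In both lines all arrays at 6 and 12 h lay above all DMSO arrays, and those at 24 h overlapped them. The 12 h rise was 0.73 ± 0.11 in Caki-1 (adjusted p = 5.3e-05) and 0.59 ± 0.09 in 769-P (adjusted p = 4.8e-05). Both other BRD8 probe sets above the filter gave like values, with 6 h changes of 0.92 and 0.94 in Caki-1 and 0.92 and 1.05 in 769-P.

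ALPK2, a gene for an alpha-kinase on chromosome 18 (58481247 to 58629091), was the gene lower in both lines. Its Caki-1 signals were 9.91, 9.83 and 9.93 with DMSO, 8.94, 8.85 and 8.94 at 6 h, 9.19, 9.12 and 9.22 at 12 h, and 10.29, 9.76 and 9.78 at 24 h. Its 769-P signals were 8.02, 7.76 and 7.93 with DMSO, 6.93, 6.74 and 7.0 at 6 h, 7.50, 6.66 and 6.96 at 12 h, and 8.80, 7.62 and 7.69 at 24 h. Arrays at 6 and 12 h lay below DMSO in both lines. At 24 h in 769-P the first array lay above every DMSO array and the other 2 below, and ALPK2 left the 769-P members without any one of the 3. The 12 h change of -0.71 ± 0.11 in Caki-1 (adjusted p = 7.7e-05) did not rest on 1 array, whereas that in 769-P, -0.86 ± 0.25 (adjusted p = 0.00982), became -0.68 (adjusted p = 0.062) without the second 12 h array. The nearest member on the chromosome was MALT1, a paracaspase of NF-kB signalling, 42.4 kb away with no measured gene between. MALT1 in 769-P changed by -0.75 at 6 h, fell by 0.66 at 12 h (adjusted p = 7.8e-05) and stood at -0.09 at 24 h, and in Caki-1 it fell at all 3 times (-0.82, -0.83 and -0.80).

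Among genes of cystine, glutathione and metal handling, SLC7A11 and MT1X had the largest 6 h changes of the higher members in Caki-1 and in 769-P. SLC7A11 encodes the cystine importer that feeds glutathione synthesis (chromosome 4, 138164097 to 138242349). Caki-1 arrays read 8.30, 8.01 and 8.21 with DMSO, 9.37, 10.39 and 10.34 at 6 h, 9.00, 8.73 and 8.66 at 12 h, and 7.86, 8.15 and 8.09 at 24 h. The 6 and 12 h arrays lay above all DMSO arrays, and the first 6 h array was about 1 unit below the other 2. The 6 h change of 1.86 was the largest rise among Caki-1 members, and the 12 h change was 0.62 ± 0.20 (adjusted p = 0.0195). That call was lost without the second DMSO array (0.54, adjusted p = 0.077) or the first 12 h array (adjusted p = 0.066). In 769-P, where the rule did not take it, SLC7A11 rose by 1.10 ± 0.10 at 6 h (adjusted p = 5.2e-07) and by 0.25 at 12 h (adjusted p = 0.0474), and then fell to 8.06, 8.15 and 8.0 at 24 h, against 9.11, 8.87 and 8.88 with DMSO (-0.89 ± 0.10, adjusted p = 1.2e-06). Another SLC7A11 probe set gave 1.93, 0.54 and -0.43 at 6, 12 and 24 h in Caki-1, and the remaining one above the filter gave 0.37, 0.10 and -0.01. The line difference at 24 h was not tested.

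GCLM, the modifier subunit of the enzyme that starts glutathione synthesis, showed the same crossing with the lines exchanged. The Caki-1 arrays had 9.79, 9.67 and 9.74 with DMSO, 10.62, 10.87 and 10.82 at 6 h, 9.93, 9.52 and 9.34 at 12 h, and 9.06, 9.03 and 9.00 at 24 h. In 769-P, which chose it, they had 11.68, 11.42 and 11.41 with DMSO, 12.28, 12.34 and 12.23 at 6 h, 11.90, 11.86 and 11.90 at 12 h, and 11.68, 11.41 and 11.50 at 24 h. All 769-P arrays at 12 h were still above DMSO (0.38 ± 0.08, adjusted p = 6.8e-04). In Caki-1 the gene rose by 1.04 ± 0.12 at 6 h (adjusted p = 1.2e-05), lay on both sides of DMSO at 12 h, and was lower on every array at 24 h (-0.71 ± 0.12, adjusted p = 7.9e-05). The 12 h change was smaller in Caki-1 than in 769-P by 0.52, a difference that passed the interaction test.

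MT1X, a metallothionein that binds zinc and copper, gave the largest 6 h change of the 769-P members. It had 8.95, 8.49 and 8.12 with DMSO, 9.81, 10.35 and 10.78 at 6 h, 9.94, 10.44 and 11.00 at 12 h, and 8.99, 8.43 and 8.57 at 24 h in that line. The 6 and 12 h arrays lay above DMSO, but the arrays varied within groups, with an SD of 0.42 with DMSO, 0.49 at 6 h, 0.53 at 12 h and 0.29 at 24 h, and the 95% interval of the 24 h change reached 0.72. The Caki-1 signals were 10.26, 10.34 and 10.33 with DMSO, 12.45, 12.03 and 11.98 at 6 h, 12.38, 11.38 and 11.44 at 12 h, and 11.17, 10.85 and 10.83 at 24 h. There it rose at each time and was still 0.64 ± 0.20 above DMSO at 24 h (adjusted p = 0.0126). Its probe set is of a kind that can bind related transcripts, and metallothionein genes are near-identical, so the family member measured is uncertain.

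Other genes near these roles had similar courses. CBR3, a carbonyl reductase, changed by 0.72 at 6 h in Caki-1 and rose by 0.60 ± 0.10 at 12 h (adjusted p = 1.8e-04). PSTK, a kinase of selenocysteine synthesis, changed by 0.70 at 6 h in Caki-1 and by 0.31 at 12 h (adjusted p = 0.139). In 769-P PSTK did not return, with rises of 0.51, 0.47 and 0.51 at the 3 times. SLC39A14, an importer of zinc, iron and manganese, rose by 0.70 ± 0.12 at 12 h in 769-P (adjusted p = 1.4e-04). In Caki-1 its rise stayed at 0.94, 1.02 and 0.99 at 6, 12 and 24 h.

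The list of NRF2 targets and metallothioneins holds SLC7A11, GCLM and MT1X. In Caki-1, of 26 listed genes tested, 22 were called higher at 6 h, 21 at 12 h and 17 at 24 h, with 2 lower at 24 h, with median changes of 0.89, 0.72 and 0.51. In 769-P, of 24 tested, 17 were higher at 6 h, 17 at 12 h and 14 at 24 h, with 2 lower at 24 h, with medians of 0.51, 0.46 and 0.47. The median over all genes tested lay between 0.01 and 0.08 in these 6 comparisons. Of all genes tested in Caki-1, 12.3%, 24.1% and 32.9% were higher at 6, 12 and 24 h, and 29.9% were lower at 24 h. In 769-P 16.4%, 24.9% and 31.1% were higher, and 24.6% were lower at 24 h. The list was drawn up with earlier results of these data known.

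The promoters of GCLM and MT1X are shown because both genes were higher at 6 h in both lines, belong to that list and hold the motif searched for. SLC7A11, also of that list and higher at 6 h in both lines, had no promoter window here, so its promoter was not searched. Windows of 250 bases before the RefSeq start (GRCh38.p14) were searched on both strands for the antioxidant response element core TGACNNNGC, marked in capitals where found, on the strand printed or as its reverse complement GCNNNGTCA. The GCLM window lies on the minus strand at chr1:93909431-93909680 and its match starts 34 bases before the gene start. The MT1X window lies on the plus strand at chr16:56682220-56682469 and its match starts 243 bases before the start.
GCLM: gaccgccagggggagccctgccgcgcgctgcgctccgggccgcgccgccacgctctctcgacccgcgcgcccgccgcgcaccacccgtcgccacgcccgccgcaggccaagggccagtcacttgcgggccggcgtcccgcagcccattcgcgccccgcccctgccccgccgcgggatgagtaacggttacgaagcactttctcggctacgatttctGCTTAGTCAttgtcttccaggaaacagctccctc
MT1X: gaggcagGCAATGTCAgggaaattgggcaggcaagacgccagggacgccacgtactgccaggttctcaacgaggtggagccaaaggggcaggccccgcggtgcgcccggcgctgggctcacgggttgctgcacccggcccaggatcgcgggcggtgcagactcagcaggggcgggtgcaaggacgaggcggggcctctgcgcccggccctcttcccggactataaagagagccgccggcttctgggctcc
In both windows the match reads as the reverse complement. Such a match is common: 2150 of 14425 genes with a window held one, or 14.9%, and 9 of 48 members with a window did, or 18.8%. By direction these were 4 of 11 higher and 5 of 37 lower members.

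Of the members described here as regulators of the cell cycle, CDKN1B and MXD3 were higher at 6 h and E2F5 was lower. CDKN1B encodes p27, an inhibitor of cyclin-dependent kinases. 769-P arrays read 9.69, 9.90 and 10.05 with DMSO, 10.60, 10.92 and 10.65 at 6 h, 10.82, 10.63 and 10.64 at 12 h, and 10.03, 10.07 and 9.87 at 24 h. Caki-1 arrays read 9.99, 9.82 and 9.89 with DMSO, 10.60, 10.70 and 10.70 at 6 h, 10.71, 10.59 and 10.59 at 12 h, and 10.50, 10.37 and 10.33 at 24 h. The rise was held at 12 h in both lines (0.82 ± 0.10 in 769-P, adjusted p = 7.0e-06), and only in Caki-1 did all 24 h arrays still lie above DMSO (0.50 ± 0.07, adjusted p = 1.2e-05). The line difference at 24 h was not tested. Of 21 genes of its list, FOXO targets and quiescence, tested in 769-P, 17 were higher and 1 lower at 6 h, and 18 were higher at 12 and at 24 h, with a median of 1.68 at 24 h. Of all genes tested there, 16.4% were higher and 14.5% lower at 6 h, 24.9% higher and 22.6% lower at 12 h, and 31.1% higher and 24.6% lower at 24 h, with a median of 0.04 at 24 h.

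MXD3 encodes a partner of MAX that opposes MYC. On the Caki-1 arrays it had 7.79, 7.27 and 7.26 with DMSO, 8.38, 8.04 and 8.05 at 6 h, 8.40, 8.25 and 8.19 at 12 h, and 7.62, 7.33 and 7.44 at 24 h. On the 769-P arrays it had 7.76, 7.88 and 7.83 with DMSO, 8.80, 8.91 and 8.79 at 6 h, 8.79, 8.89 and 8.77 at 12 h, and 7.38, 7.15 and 7.41 at 24 h. The rise at 12 h was 0.84 ± 0.14 in Caki-1 (adjusted p = 1.6e-04) and 0.99 ± 0.09 in 769-P (adjusted p = 2.4e-07). At 24 h the 769-P arrays lay below every DMSO array (-0.51 ± 0.09, adjusted p = 1.4e-04), while the Caki-1 arrays overlapped theirs. A second MXD3 probe set above the filter gave -0.02 at 6 h in Caki-1, so the probe sets of this gene disagree. E2F5, a repressive E2F factor, changed by -0.87 at 6 h in Caki-1 and by -0.23 ± 0.12 at 12 h (adjusted p = 0.116), and in 769-P it fell by 0.34 at 6 h (adjusted p = 0.00241).

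HEY1, PER3 and MECOM, which act on transcription, were among the 9 that kept at most 25% of the 6 h change at 12 h. HEY1, a repressor induced by Notch, had 7.05, 7.06 and 6.90 with DMSO, 7.82, 7.99 and 7.75 at 6 h, 7.0, 7.29 and 6.90 at 12 h, and 7.16, 7.18 and 6.97 at 24 h in 769-P. The Caki-1 signals were 6.07, 6.05 and 6.12 with DMSO, 6.45, 6.85 and 6.81 at 6 h, 6.46, 6.09 and 5.93 at 12 h, and 5.95, 5.84 and 5.97 at 24 h. In both lines only the 6 h arrays stood clear above DMSO, by 0.85 in 769-P and by 0.62 ± 0.14 in Caki-1 (adjusted p = 0.00318), and the 12 h changes were 0.06 (adjusted p = 0.735) and 0.08 (adjusted p = 0.648). Of 16 Notch and WNT pathway genes tested in 769-P, 1 was higher and 2 lower at 6 h, so HEY1 was the only one of the list that rose there. Of all genes tested in that line, 16.4% were higher and 14.5% lower at 6 h.

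PER3, a clock gene of the Period family, was low, high and low again at 6, 12 and 24 h in 769-P, and was chosen by Caki-1. Caki-1 arrays read 7.22, 6.68 and 6.91 with DMSO, 6.68, 5.88 and 5.57 at 6 h, 7.29, 7.20 and 7.23 at 12 h, and 6.45, 7.25 and 7.25 at 24 h. The 769-P signals were 7.84, 7.71 and 7.67 with DMSO, 7.09, 7.21 and 7.04 at 6 h, 8.21, 8.23 and 8.11 at 12 h, and 6.54, 6.65 and 6.56 at 24 h. In 769-P no treated group overlapped DMSO, with changes of -0.63 ± 0.09 at 6 h (adjusted p = 6.2e-05), 0.44 ± 0.09 at 12 h (adjusted p = 7.1e-04) and -1.16 ± 0.09 at 24 h (adjusted p = 2.3e-08). In Caki-1 the DMSO, 6 h and 24 h groups were wider, the 12 h change was 0.31 ± 0.25 (adjusted p = 0.339), and the first 24 h array lay apart from the other 2. Without it PER3 was no longer a member. Of 14 glucocorticoid and circadian genes tested in 769-P, 2 were higher and 3 lower at 6 h, 5 higher and 4 lower at 12 h, and 3 higher and 6 lower at 24 h. Of all genes tested there, 16.4%, 24.9% and 31.1% were higher and 14.5%, 22.6% and 24.6% lower at these times.

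KLF10, a Kruppel-like factor induced by TGF-beta, changed by -0.75 at 6 h in 769-P and fell by 0.38 ± 0.08 at 12 h (adjusted p = 0.00113), and its second probe set gave -0.74, -0.38 and -0.02 at the 3 times. In Caki-1 it changed by -0.17 at 6 h (adjusted p = 0.156). TLE1, a Groucho corepressor, changed by -0.89 at 6 h in Caki-1 and fell by 0.70 ± 0.09 at 12 h (adjusted p = 1.8e-05). In 769-P TLE1 changed by 0.07 at 6 h (adjusted p = 0.678) and fell at 12 h (-0.34) and 24 h (-0.42). MECOM, a zinc finger factor of kidney and blood development, changed by 0.70 at 6 h in 769-P and by 0.10 at 12 h (adjusted p = 0.53). It met the rule in only 6 of the 12 sets that leave out 1 array.

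A further group consisted of ligands, receptors and signalling proteins. FGF2, a fibroblast growth factor, had 9.51, 9.54 and 9.66 with DMSO, 8.37, 8.68 and 8.76 at 6 h, 9.18, 8.92 and 9.20 at 12 h, and 9.53, 9.42 and 9.30 at 24 h in 769-P. All 6 and 12 h arrays lay below DMSO, with a 12 h change of -0.47 ± 0.11 (adjusted p = 0.00191). In Caki-1 it fell at each time (-0.57, -0.43 and -0.46). SPRY1, a feedback inhibitor of FGF and other receptor signalling that lies 498.6 kb from FGF2 on chromosome 4, was a Caki-1 member, with a 12 h change of -0.43 ± 0.14 (adjusted p = 0.0165) that became -0.26 (adjusted p = 0.085) without the first 12 h array. Its Caki-1 signals were 7.67, 7.67 and 7.68 with DMSO, 6.81, 6.94 and 7.0 at 6 h, 6.90, 7.27 and 7.55 at 12 h, and 7.53, 7.59 and 7.86 at 24 h. Those arrays stood below DMSO at 6 and 12 h and on both sides of it at 24 h. In 769-P SPRY1 passed the test at no time.

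The lists these 2 genes belong to held calls in both directions, with more genes lower than higher in 769-P. Among 20 ERK feedback genes tested in Caki-1, 5 were called higher and 6 lower at 6 h, 6 higher and 9 lower at 12 h, and 6 higher and 3 lower at 24 h. Of all genes tested in Caki-1, 12.3%, 24.1% and 32.9% were higher and 14.0%, 24.4% and 29.9% lower at the 3 times. Of 19 ERK feedback genes tested in 769-P, 12 were lower at 6 h, 9 at 12 h and 8 at 24 h. Those higher were 2, 2 and 5, and the median changes were -0.63, -0.36 and -0.16. Among 18 receptor tyrosine kinase genes and ligands tested in 769-P, 4 were called higher at every time, and 9, 10 and 9 lower at 6, 12 and 24 h. Of all genes tested in 769-P, 16.4%, 24.9% and 31.1% were higher and 14.5%, 22.6% and 24.6% lower. For SPRY1 and for FGF2 the other probe sets above the filter were still lower at 24 h (-0.45 and -0.43 for SPRY1 in Caki-1, -0.46 and -0.93 for FGF2 in 769-P).

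Both death receptors among the members were chosen by 769-P. TNFRSF10B, the TRAIL receptor DR5, had 11.99, 11.93 and 11.97 with DMSO, 10.66, 10.74 and 10.94 at 6 h, 11.29, 11.22 and 11.33 at 12 h, and 11.78, 11.81 and 11.78 at 24 h. Its arrays did not overlap DMSO at any time, the 12 h change was -0.68 ± 0.07 (adjusted p = 5.7e-07), and the 24 h change was -0.17. In Caki-1 it changed by -0.13, -0.15 and 0.01 and passed the test at no time. Of 22 p53 targets tested in 769-P, a list that holds TNFRSF10B, 4 were higher and 8 lower at 6 h, and 9 were higher and 9 lower at 24 h. Among all genes tested in 769-P, 16.4% were higher and 14.5% lower at 6 h, and 31.1% and 24.6% at 24 h. TNFRSF21, the receptor DR6, changed by -1.12 at 6 h in 769-P, fell by 0.63 ± 0.10 at 12 h (adjusted p = 9.1e-05), and in Caki-1 fell at all 3 times (-0.88, -0.77 and -0.62).

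CAMKK1, a calcium-dependent kinase that acts upstream of other kinases, was high on closely grouped arrays in 769-P. It had 9.13, 9.01 and 9.13 with DMSO, 10.38, 10.44 and 10.41 at 6 h, 10.23, 10.42 and 10.16 at 12 h, and 9.15, 9.12 and 9.05 at 24 h. The 12 h change of 1.18 ± 0.08 (adjusted p = 8.9e-09) was nearly that of 6 h, 1.32, and the 24 h arrays overlapped DMSO. In Caki-1 it rose by 0.46 at 6 h and by 0.30 at 12 h and stood at 0.26 at 24 h (adjusted p = 0.0518). Its other probe set above the filter gave 0.15, 0.29 and 0.21 in 769-P.

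**Figure D3:**
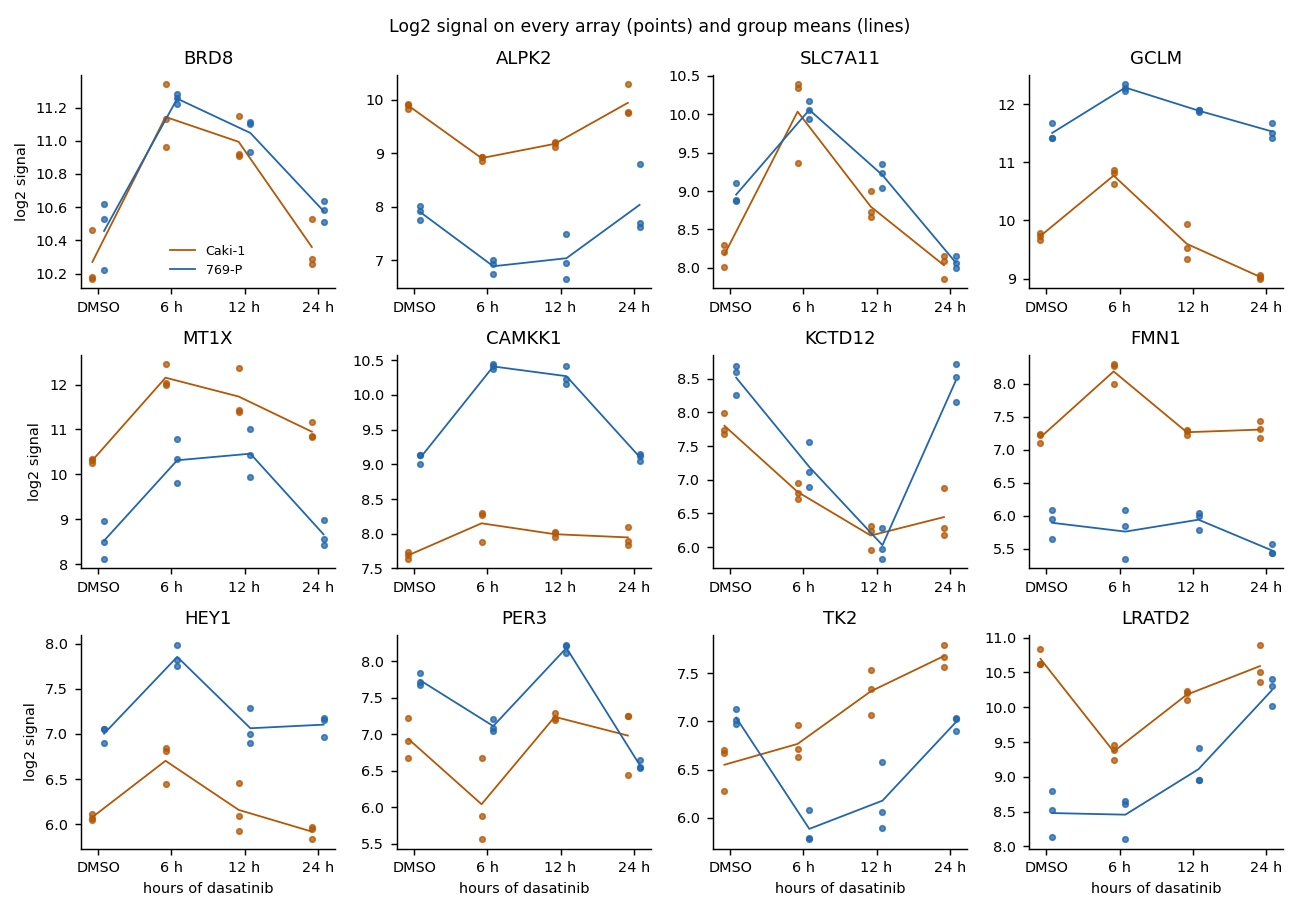
Log2 signal on every array (points) with group means (lines) for 12 members, by DMSO and hours of dasatinib, Caki-1 in orange and 769-P in blue. FMN1 and HEY1 are back at 12 h, CAMKK1, MT1X and KCTD12 in 769-P return only at 24 h, and SLC7A11 (769-P), GCLM (Caki-1), TK2 (Caki-1) and LRATD2 (769-P) end away from DMSO in the line that did not choose them.

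Of the members described here for roles in the cytoskeleton, adhesion and membrane traffic, FMN1 was higher at 6 h, and TNS3, AIF1L, ARHGAP26, DCDC2, NECTIN3 and RIN2 were lower. FMN1, a formin that assembles actin filaments, had 7.10, 7.24 and 7.22 with DMSO, 7.99, 8.27 and 8.29 at 6 h, 7.22, 7.28 and 7.29 at 12 h, and 7.43, 7.31 and 7.17 at 24 h in Caki-1. Only the 6 h arrays stood apart from DMSO, and the 12 h change was 0.07 ± 0.10 (adjusted p = 0.564). A second FMN1 probe set gave 0.97, 0.04 and -0.03 at the 3 times. In 769-P FMN1 changed by -0.13 at 6 h (adjusted p = 0.613) and fell by 0.42 at 24 h (adjusted p = 0.0405).

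TNS3, a tensin of focal adhesions, changed by -0.84 at 6 h in Caki-1 and fell by 0.31 ± 0.09 at 12 h (adjusted p = 0.0089), a call lost with the mean of all its probe sets (-0.11, adjusted p = 0.34). In 769-P TNS3 changed by -0.03 at 6 h (adjusted p = 0.877), rose by 0.45 at 12 h and rose by 0.74 ± 0.10 at 24 h (adjusted p = 7.1e-06). AIF1L, an actin-binding protein, had 6.93, 7.70 and 7.66 with DMSO, 6.35, 6.91 and 6.67 at 6 h, 5.40, 6.78 and 6.76 at 12 h, and 7.08, 7.60 and 7.56 at 24 h in Caki-1. It was low on all 6 and 12 h arrays, with 1 much lower at 12 h, and its 12 h change was -1.12 ± 0.31 (adjusted p = 0.00743). Both other AIF1L probe sets above the filter there changed little, by -0.11, 0.05 and 0.17 and by -0.13, -0.16 and 0.07 at 6, 12 and 24 h, and AIF1L was no longer a member without any one of 4 arrays. In 769-P AIF1L had 10.29, 10.39 and 10.65 with DMSO, 10.04, 10.10 and 10.24 at 6 h, 10.45, 10.52 and 10.59 at 12 h, and 12.13, 12.00 and 11.89 at 24 h. Its 24 h arrays there lay more than 1 unit above DMSO (1.56 ± 0.09, adjusted p = 9.0e-10), while its fall at 6 h, -0.32, lost its call without the third DMSO array (-0.21, adjusted p = 0.082) or the first 6 h array (-0.27, adjusted p = 0.064).

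In 769-P the lower genes of this kind were ARHGAP26, a GTPase-activating protein of RHOA and CDC42, DCDC2, a microtubule-binding protein, NECTIN3, an adhesion receptor, and RIN2, a RAB5 exchange factor. ARHGAP26 changed by -1.15 at 6 h and fell by 0.91 ± 0.13 at 12 h (adjusted p = 2.7e-05), and in Caki-1 it changed by 0.18, -0.02 and -0.00 and passed the test at no time. DCDC2 had 11.07, 11.15 and 11.14 with DMSO, 9.84, 9.98 and 9.80 at 6 h, 10.28, 10.20 and 10.17 at 12 h, and 11.30, 11.11 and 10.96 at 24 h. It was clearly below DMSO at 6 and 12 h and around it at 24 h, and in Caki-1 it fell at each time (-0.82, -0.70 and -0.56). Its other probe set above the filter gave -1.14, -1.18 and -0.47 in 769-P, and thus was still lower at 24 h. RIN2 was near DMSO but still called at 12 h in 769-P (-0.25 ± 0.09, adjusted p = 0.0328), a call lost without any one of 4 arrays (adjusted p up to 0.16). In Caki-1 RIN2 fell by 0.72 at 6 h, changed by 0.00 at 12 h and rose by 0.48 at 24 h (adjusted p = 0.00263). CHST11, a chondroitin sulfotransferase, was a Caki-1 member that was as brief, with -0.83 at 6 h and -0.09 at 12 h (adjusted p = 0.589). In 769-P, where the rule did not take it, it fell by 0.62 ± 0.09 at 6 h (adjusted p = 6.0e-05) and changed by -0.05 at 12 h and -0.14 at 24 h.

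Metabolic enzymes made up a further set. TK2, the mitochondrial thymidine kinase (chromosome 16, 66508003 to 66550291), was chosen by 769-P. On the Caki-1 arrays it had 6.28, 6.67 and 6.70 with DMSO, 6.63, 6.96 and 6.71 at 6 h, 7.07, 7.53 and 7.34 at 12 h, and 7.80, 7.57 and 7.67 at 24 h. On the 769-P arrays it had 7.02, 7.13 and 6.97 with DMSO, 5.78, 6.08 and 5.79 at 6 h, 6.06, 5.89 and 6.58 at 12 h, and 7.04, 6.90 and 7.03 at 24 h. It rose at 12 h in Caki-1 (0.76 ± 0.14, adjusted p = 3.4e-04), where it was 1.13 ± 0.14 above DMSO at 24 h (adjusted p = 4.6e-06), and fell at 12 h in 769-P (-0.86 ± 0.15, adjusted p = 1.8e-04). The difference of the 12 h changes, 1.62, was the largest of any member. Both other TK2 probe sets above the filter in 769-P were still lower at 24 h, at -0.70 and -0.43.

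MTAP, which salvages methylthioadenosine, had 8.11, 7.94 and 8.03 with DMSO, 7.01, 6.83 and 6.77 at 6 h, 7.03, 7.26 and 7.20 at 12 h, and 8.07, 7.84 and 7.83 at 24 h in 769-P. It was below DMSO at 6 and 12 h (12 h change -0.86 ± 0.10, adjusted p = 5.1e-06), and in Caki-1 it fell at each time (-0.76, -1.09 and -1.01). In 769-P 3 of its other probe sets were still low at 24 h, at -0.85, -0.53 and -0.59. DDAH1, which degrades asymmetric dimethylarginine, changed by -1.15 at 6 h and fell by 1.09 ± 0.10 at 12 h in 769-P (adjusted p = 3.6e-07). In Caki-1 it fell at each time (-1.36, -0.99 and -0.67). It lies 2.56 kb from CCN1, a matricellular target of YAP, which is no member and fell at all 3 times in 769-P (-3.43, -2.71 and -1.78).

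GPAT3, an acyltransferase of triglyceride synthesis, had 7.46, 7.74 and 7.33 with DMSO, 8.08, 8.71 and 8.41 at 6 h, 8.30, 8.40 and 8.43 at 12 h, and 7.23, 7.63 and 7.77 at 24 h in 769-P. The Caki-1 signals were 9.41, 8.96 and 9.31 with DMSO, 10.21, 10.23 and 10.29 at 6 h, 9.72, 9.25 and 9.16 at 12 h, and 8.58, 8.61 and 8.71 at 24 h. The rise was held at 12 h in 769-P (0.87 ± 0.16, adjusted p = 2.9e-04) and not in Caki-1 (0.15, adjusted p = 0.362), where all 24 h arrays lay below DMSO (-0.59 ± 0.13, adjusted p = 0.00122). DHRS9, a dehydrogenase of retinoids and steroids, changed by 1.10 at 6 h and rose by 0.93 ± 0.10 at 12 h in 769-P (adjusted p = 2.1e-06). VSTM4, an immunoglobulin-domain membrane protein, changed by 1.06 and rose by 0.85 ± 0.11 (adjusted p = 8.1e-06), and its 3 other probe sets above the filter gave 0.98, 1.07 and 0.99 at 6 h.

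The largest single change at 12 h belonged to KCTD12, an auxiliary subunit of GABA-B receptors. 769-P arrays read 8.26, 8.69 and 8.59 with DMSO, 6.89, 7.56 and 7.12 at 6 h, 5.83, 5.98 and 6.28 at 12 h, and 8.15, 8.71 and 8.53 at 24 h. Caki-1 arrays read 7.73, 7.68 and 7.99 with DMSO, 6.95, 6.80 and 6.71 at 6 h, 5.96, 6.32 and 6.24 at 12 h, and 6.88, 6.18 and 6.28 at 24 h. The 12 h change was -2.48 ± 0.18 in 769-P (adjusted p = 2.4e-08) and -1.63 ± 0.16 in Caki-1 (adjusted p = 1.1e-06), and only Caki-1 was still lower at 24 h (-1.35 ± 0.16, adjusted p = 3.2e-06). A second probe set gave -1.37, -2.64 and -0.21 at the 3 times in 769-P, and another -0.88, -1.73 and -0.57. The remaining one above the filter changed less, by -0.17, -0.58 and -0.09.

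BEND3, a BEN-domain protein of repressive chromatin, was likewise back in 769-P and not in Caki-1. On the 769-P arrays it had 8.04, 8.34 and 8.36 with DMSO, 7.36, 7.47 and 7.49 at 6 h, 6.94, 7.45 and 7.23 at 12 h, and 8.36, 8.25 and 8.48 at 24 h. On the Caki-1 arrays it had 7.76, 8.04 and 8.06 with DMSO, 6.38, 6.59 and 6.64 at 6 h, 5.49, 6.07 and 6.10 at 12 h, and 6.29, 6.08 and 6.69 at 24 h. Both lines were lower at 12 h, with -1.04 ± 0.13 in 769-P (adjusted p = 4.8e-06) and -2.07 ± 0.17 in Caki-1 (adjusted p = 2.2e-07), and at 24 h BEND3 was near DMSO in 769-P and still lower in Caki-1 (-1.60 ± 0.17, adjusted p = 1.2e-06). In 769-P 1 other BEND3 probe set gave -0.61, -0.80 and -0.00 at 6, 12 and 24 h, and another gave 0.11, 0.15 and -0.01. RBM24, an RNA-binding protein, showed the reverse pairing: it changed by -0.83 at 6 h in Caki-1 and fell by 0.66 ± 0.13 at 12 h, while in 769-P it fell at 6, 12 and 24 h (-1.42, -2.03 and -1.40).

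LRATD2 (chromosome 8, 126552443 to 126558478) had the largest 6 h fall in Caki-1 among the genes that Caki-1 chose. In 769-P it had the largest 24 h rise of any member. The Caki-1 signals were 10.62, 10.62 and 10.84 with DMSO, 9.24, 9.46 and 9.39 at 6 h, 10.23, 10.10 and 10.21 at 12 h, and 10.90, 10.36 and 10.51 at 24 h. The 769-P signals were 8.13, 8.52 and 8.79 with DMSO, 8.11, 8.65 and 8.61 at 6 h, 8.96, 8.95 and 9.42 at 12 h, and 10.01, 10.30 and 10.41 at 24 h. Its Caki-1 level was below DMSO at 6 and 12 h (-0.51 ± 0.11 at 12 h, adjusted p = 0.00162). In 769-P the 6 h arrays overlapped DMSO, and the later ones rose by 0.63 ± 0.18 at 12 h (adjusted p = 0.00809) and by 1.76 ± 0.18 at 24 h (adjusted p = 4.6e-07). Its probe set is of the kind that can bind related transcripts. PGCKA1 and PRRG1 were further lower members of Caki-1, with 12 h changes of -0.54 ± 0.30 (adjusted p = 0.155) and -0.69 ± 0.09 (adjusted p = 1.5e-05). PGCKA1 was under the filter in 769-P, and the 95% interval of its 24 h change in Caki-1 reached 0.82.

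The arrays of the other line were independent of the choice for genes taken through 1 line alone, except that such genes had failed the rule there. Of 20 genes taken through Caki-1 alone, 19 were tested in 769-P. At 6 h 12 were called, 4 higher and 8 lower, against 30.9% of all genes tested (16.4% higher, 14.5% lower). At 12 h 11 were called, 7 higher and 4 lower, against 47.5%, and at 24 h 14 were, 6 higher and 8 lower, against 55.7% (31.1% higher, 24.6% lower). CBR3, MXD3, PSTK and SLC7A11 were the 4 that rose at 6 h. Only CBR3, CHST11 and E2F5 were called at 6 h and not at 24 h, whereas CDR2 and RBM24 were lower and PSTK was higher at all 3 times. The share of all genes tested in 769-P with such courses was not counted. The 6 h call of CBR3 was lost without the first DMSO array (0.57, adjusted p = 0.076), the third DMSO array (0.58, adjusted p = 0.068) or the second 6 h array (0.52, adjusted p = 0.1). Among genes with a highest group mean of at least 7 in 769-P, a level not every one of these genes reached, 38.3%, 58.1% and 67.2% were called at 6, 12 and 24 h, so the 12 h count of 11 of 19 lay at that background.

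The 41 genes taken through 769-P alone were all tested in Caki-1. At 6 h 29 were called, 7 higher and 22 lower, against 26.4% of all genes tested (12.3% higher, 14.0% lower). At 12 h 29 were called, again 7 higher and 22 lower, against 48.4%, and at 24 h 30 were, 9 higher and 21 lower, against 62.8% (32.9% higher, 29.9% lower). Among genes with a highest group mean of at least 7 in Caki-1, 32.9%, 58.9% and 72.3% were called at 6, 12 and 24 h, so the 24 h count of 30 of 41 lay at that background and the 6 h count above it. In Caki-1 17 of these genes were lower at all 3 times, among them BEND3, KCTD12, MTAP, CCDC9B, DCAF4, MALT1 and PRAG1, and CDKN1B, MT1X and SLC39A14 were higher at all 3. ARHGAP26, MECOM, TNFRSF10B, UFSP1 and VSTM4 were called at no time. For 6 genes, CAMKK1, HEY1, NPY5R, PTPRE, TRIM47 and ZNFX1, Caki-1 was called at 6 h and not at 24 h; the 6 h calls of NPY5R (-0.36, adjusted p = 0.1, without the third 6 h array), TRIM47 (-0.24, adjusted p = 0.11, without the first DMSO array) and PTPRE (-0.37, adjusted p = 0.054, without the third 6 h array) could be lost with 1 array. That of PTPRE was also lost with the mean of all its probe sets (-0.20, adjusted p = 0.17). How many of all genes tested in Caki-1 followed each of these courses was not counted, so the counts of courses are a description.

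A crossing from one side of DMSO to the other was measured for 7 genes in the line that had not chosen them. SLC7A11, MXD3, AIF1L and PRRG1, 4 of 19 tested, were called in opposite directions at 6 and 24 h in 769-P. GCLM, GPAT3 and RIN2, 3 of 41, were so called in Caki-1. Crossings among all genes tested were not counted, so these numbers are a description. In the line that chose a gene, the rule's limit of 0.2 at 24 h leaves little room for a crossing. For SLC7A11, MXD3, GCLM and GPAT3 the early rise gave way to a late fall, and for AIF1L, PRRG1 and RIN2 an early fall gave way to a late rise. PRRG1 in 769-P fell by 0.26 at 6 h and rose by 0.41 ± 0.07 at 24 h (adjusted p = 1.9e-04), and its 6 h call was lost without the third DMSO array (-0.18, adjusted p = 0.077). The 6 and 24 h comparisons share their DMSO arrays.

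**Figure D4:**
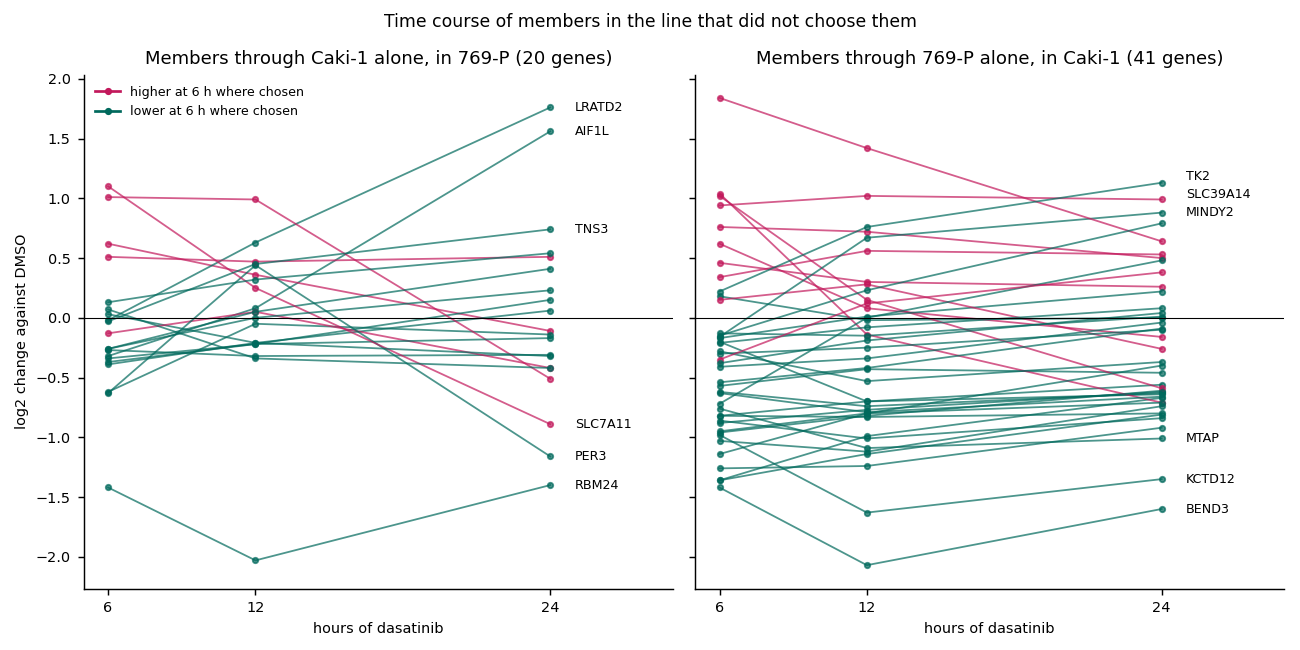
Log2 change against DMSO at 6, 12 and 24 h of the 20 members through Caki-1 alone, measured in 769-P, and of the 41 members through 769-P alone, measured in Caki-1, coloured by direction at 6 h in the line that chose them. LRATD2 and AIF1L end at 1.76 and 1.56 in 769-P, and TK2 ends at 1.13 and BEND3 at -1.60 in Caki-1.

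The 12 h change differed between the lines for 21 of 63 members by limma's interaction test, against 18.9% of all genes tested (8.68% higher in Caki-1, 10.3% lower). The change was higher in Caki-1 for 9, led by TK2 (1.62), RBM24 (1.37) and PPP1R14C (1.00), and lower for 12, led by AIF1L (-1.20), LRATD2 (-1.15) and BEND3 (-1.03). These genes were chosen for a response in 1 line, and the DMSO arrays are shared with that choice.

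Most genes on this array have several probe sets, which were not used to choose members. For the line that chose a gene, 74 of 112 other probe sets lay above the filter. Of these 71 changed in the same direction at 6 h and 63 by at least 0.35. At 24 h 30 of the 63 lay within 0.2 of DMSO. Of the other 33, 26 were still displaced in the 6 h direction and 7 lay on the opposite side. The 6 h response was thus shared by most probe sets of a gene, and the return to within 0.2 by fewer. The gap was wide in 769-P, where 20 of 48 such probe sets were back at 24 h, while 10 of 15 were in Caki-1.

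Genes for which each other probe set above the filter met both sizes were BRD8, CDR2, CHST11, FMN1, PSTK, RBM24 and TGIF2 in Caki-1, and CDKN1B, FRMD4A, GCLM, KLF10, MINDY2, NECTIN3, RIN2, TMEM139 and ZNFX1 in 769-P, 16 of 42 line memberships with such a probe set. ARHGAP26 had 4 others at -0.36 to -0.55 at 24 h. TNFRSF10B had 2 others at -0.48 and -0.23. MALT1 lay on the opposite side, with 0.25, 0.40 and 0.27. For 22 members no other probe set lay above the filter, among them ALPK2, HEY1, LRATD2 and DDAH1.

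**Figure D5:**
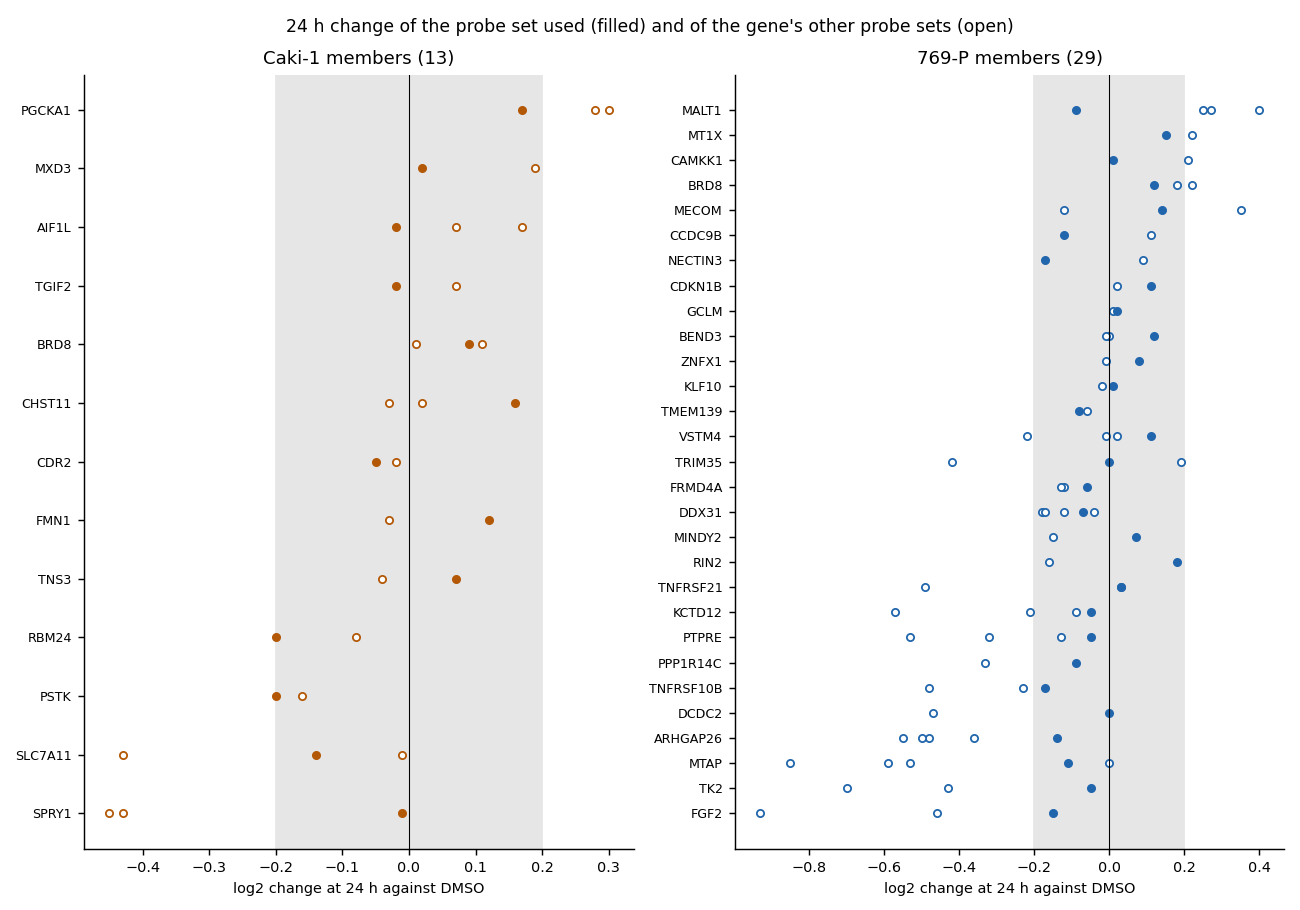
Log2 change at 24 h of the probe set that chose each gene (filled) and of its other probe sets above the filter (open), for 13 Caki-1 and 29 769-P members; the grey band marks 0.2 on either side of DMSO. Open circles of FGF2, TK2, MTAP and ARHGAP26 lie left of the band in 769-P, and those of SPRY1 in Caki-1.

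Promoter windows were held for 48 members, 11 higher and 37 lower. The E-box CACGTG, a palindrome read by MYC, MAX and clock factors, occurred in 9 members, or 18.8%, against 9.82% of all genes with a window. All 9 were lower members: BEND3, DCAF4, DDX31, FAM174B, FRMD4A, MINDY2, NPY5R, PGCKA1 and TNFRSF21. The windows of BEND3 (minus strand, chr6:107115516-107115765, 1 of 2 windows of that gene) and TNFRSF21 (minus strand, chr6:47309906-47310155) are shown as examples of lower members that hold it, in capitals, starting 11 and 34 bases before the start.
BEND3: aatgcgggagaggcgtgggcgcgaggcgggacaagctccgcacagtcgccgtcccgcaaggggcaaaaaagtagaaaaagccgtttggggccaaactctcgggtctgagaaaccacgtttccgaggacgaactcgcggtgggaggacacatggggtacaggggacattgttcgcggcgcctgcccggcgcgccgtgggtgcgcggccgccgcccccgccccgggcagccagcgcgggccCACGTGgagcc
TNFRSF21: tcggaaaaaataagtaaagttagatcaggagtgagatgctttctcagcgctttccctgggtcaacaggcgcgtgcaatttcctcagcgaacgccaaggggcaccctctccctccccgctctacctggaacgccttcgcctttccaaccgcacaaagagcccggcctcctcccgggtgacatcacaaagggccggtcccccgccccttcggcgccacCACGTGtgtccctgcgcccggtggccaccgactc
A match describes the letters of the window and no binding.

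The other motifs were searched on both strands too, and the GC box and the metal response element core lay further from all genes in percentage points than the E-box did. The AP-1 site TGACTCA was in 6.25% of members and 4.7% of genes, the TEAD site GGAATG in 10.4% and 13.4%, the ETS site CCGGAAG in 14.6% and 14.3%, the RBPJ site TTCCCAC in 10.4% and 7.02%, and the EGR site GCGGGGGCG in 10.4% and 8.4%. The GC box GGGCGG was in 77.1% and 63.6%, the metal response element core TGCNCNC in 72.9% and 60.6%, the CCAAT box CCAAT in 45.8% and 40.5%, and the CACCC box CCACCC in 45.8% and 41.1%. The amino acid response element TGATGNAA was in 6.25% and 3.16%, and the FOXO site TTGTTTAC in 2.08% and 0.95%. The E2F site TTTCCCGC was in 2.08% and 2.37%, the D-box TTATGTAA in 2.08% and 0.887%, and the glucocorticoid half-site pair ACANNNTGT in 2.08% and 4.67%. The cyclic AMP response element TGACGTCA, a serum response element and an NF-kB site were in no member's window and in 2.83%, 0.0555% and 0.236% of genes. EGR sites and GC boxes can overlap, as can an AP-1 site and the antioxidant core.

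Members lay on 20 chromosomes and all 63 were protein-coding. Chromosome 8 held 8 of them among 628 measured genes, chromosome 4 held 7 and chromosome 10 held 6. Apart from ALPK2 with MALT1 and FGF2 with SPRY1, SLC39A14 and TNFRSF10B lay 586.0 kb apart on chromosome 8, with 10 measured genes between. SLC39A14 rose in 769-P at 12 h and TNFRSF10B fell.

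The rule's edges ran through a dense field of values. PSTK (0.704) and UFSP1 (0.702) lay just inside the 6 h size, with TBX18 (0.667) just outside in Caki-1 and TEX2 (0.698) in 769-P. RBM24 (0.199) and NPY5R (0.197) lay just inside the 24 h size, with TRAF5 (0.210) just outside in Caki-1 and ELOVL7 (0.217) in 769-P. PER3 (7.24) and UFSP1 (7.02) lay just above the level, with CYP24A1 (6.97) just under it in Caki-1 and SSH1 (6.996) in 769-P. The 95% interval of the 24 h change had a median half-width of 0.25 in Caki-1 and 0.24 in 769-P, which is wider than the 0.2 of the rule. It lay within 0.5 of DMSO for 17 of 22 and 39 of 43 members. With each array left out in turn, 9 of 22 and 21 of 43 members were kept in all 12 sets. Leaving out the first 24 h array removed 6 of 22 members in Caki-1 and 10 of 43 in 769-P, against at most 5 and 8 for any other array.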

How the data were processed

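The deposited log2 signals, 1 per probe set and array, were made by the authors with MAS5, per the submitters' processing notes, which give no version or settings. The array carries perfect-match probes only and the array medians were nearly equal, so whether MAS5 alone describes these values is not settled. How the arrays were brought to a common level is not given in the sources used here. Of 49395 probe sets, 44994 named 1 gene, 1832 several and 2569 had no entry in the platform annotation, whose genes were placed through RefSeq GRCh38.p14.

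Changes of dasatinib against DMSO were fitted per line (12 arrays, 8 residual degrees of freedom) by limma 3.58.1 (R 4.3.3) with the package data.table, version 1.17.8, an intensity trend and Benjamini-Hochberg adjustment over the 12420 genes of Caki-1 and 12350 of 769-P above the 40th percentile of probe-set means. Line differences used 24 arrays (16 residual degrees of freedom, 12862 genes). Calls are adjusted p under 0.05. The number of arrays limits the precision: SEs had a median of 0.1 (Caki-1), 0.105 (769-P) and 0.151 (line difference). Values after ± are SE, with n = 3 arrays a group. The fit was tested on simulated data. Tables and figures used Python 3.11.15 with pandas 2.3.3, numpy 2.4.6 and matplotlib 3.10.9.

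The members, gene lists and motifs were chosen with earlier results of these data known. Named were, per line, the 8 largest rises and falls at 6 h, genes of both lines, list members, the 3 largest changes at 12 h and at 6 h in the other line, and the genes next to each threshold; CDR2, CHST11, FAM174B, MALT1, MECOM, MINDY2, NECTIN3, NPY5R, PPP1R14C, PTPRE, RIN2, SLC39A14, TRIM47, UFSP1, CCN1 and other members in counts were named after their values were seen.

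Deviations from the group mean were correlated over genes between treated and DMSO arrays of equal number. In 769-P the correlations were 0.111 to 0.362 at 6 h, 0.057 to 0.307 at 12 h and 0.122 to 0.171 at 24 h. In Caki-1 they were -0.021 to 0.307, -0.031 to 0.168 and 0.053 to 0.143. Every value was over 0.1 only in 769-P at 6 and 24 h, but its 12 h values of 0.286 and 0.307 exceeded those at 24 h. Whether the arrays were paired was thus not settled. The labels tie no number to a shared culture or day. Alternatives were the mean of all probe sets, median centring, quantile normalization, no filter, a 60th percentile filter, no trend, a replicate block, each array left out, and other sizes in the rule.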

Additional observations from a re-analysis of the deposited data

Results flagged for a closer look

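The change at 12 h differed between the lines, by the interaction test itself (adjusted p under 0.05), for 21 members, each given on the log2 scale as Caki-1 minus 769-P. It was higher in Caki-1 for TK2 (1.62), RBM24 (1.37), PPP1R14C (1.00), MINDY2 (0.91), ARHGAP26 (0.88), KCTD12 (0.86), NPY5R (0.67), TNFRSF10B (0.53) and KLF10 (0.39). TK2, PPP1R14C and MINDY2 had 12 h changes of opposite sign in the lines. For RBM24 the fall was the greater in 769-P, which had not chosen it, and the other 769-P genes had fallen further there. It was lower in Caki-1 for AIF1L (-1.20), LRATD2 (-1.15), BEND3 (-1.03), CAMKK1 (-0.88), TNS3 (-0.77), TGIF2 (-0.75), PRRG1 (-0.74), GPAT3 (-0.72), FRMD4A (-0.63), GCLM (-0.52), DCAF4 (-0.47) and TMEM139 (-0.44). BEND3, FRMD4A, DCAF4 and TMEM139 were 769-P members that had fallen further in Caki-1. Groups of 3 arrays are too small for the test of single outlying samples used here, and no cause of these differences was tested.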

How the results depend on the processing

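The number of member genes was 63 and became 37 (28 of them shared) with the mean of all probe sets, 19 with a 6 h size of 1, 35 and 101 with a 24 h size of 0.1 and 0.3, 65 (56 shared) with arrays centred on their median and 68 (57 shared) with quantile normalization; with 1 array left out it ran from 62 to 69. With the mean of all probe sets, the Caki-1 members called in 769-P were 7 at 12 h, in place of 11, and 9 at 24 h, in place of 14. The other settings kept these counts within 1.5 times, and the cause of each shift was not tested. With 1 array left out, the 12 h calls in the own line ran from 12 to 16 in Caki-1 and from 34 to 37 in 769-P, the Caki-1 members called in 769-P from 10 to 12 at 6 h, 8 to 11 at 12 h and 12 to 14 at 24 h, the 769-P members called in Caki-1 from 26 to 29, 26 to 31 and 28 to 31, and the line differences from 18 to 22. Leaving out an array lost 12 single-gene calls. With the replicate numbers as a block, a pairing that was not settled, the own-line 12 h calls were 16 and 37. The Caki-1 members called in 769-P were 12, 11 and 14, the 769-P members called in Caki-1 29, 32 and 32, and the line differences 24. The block turned the 12 h falls of PGCKA1 (adjusted p = 0.022) and VSIR (adjusted p = 0.021) into calls and ended none. The mean of all probe sets ended the 12 h calls of SLC7A11 in Caki-1 (0.42, adjusted p = 0.08) and of SLC39A14 (0.12, adjusted p = 0.29), LGALSL (-0.25, adjusted p = 0.08) and RIN2 (-0.17, adjusted p = 0.22) in 769-P. No gene called at 12 h in its own line or at 6 h in the other line changed sign. For left-out arrays the sign was read from the fit with the highest adjusted p. Sign changes of genes called in neither fit, and at other times, were not recorded. Membership near the edges of the rule is set by differences smaller than the SE of a change, and raw intensities were not used here.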
